A study of Mus musculus with 6 samples.

Results

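A set of 44 genes of the lysosome and of its proton pump, the vacuolar ATPase (V-ATPase), was followed in cultured mouse muscle cells given recombinant human MG53 (rhMG53), a membrane repair protein of striated muscle, or bovine serum albumin (BSA) as the vehicle. The genes were chosen by name for their function, with the scaled counts of the rhMG53 and BSA libraries already known, and all 44 were found among the 27179 gene rows of the count table. Differences between the 2 treatments are therefore given here as descriptions, with their errors, and not as tests. RNA came from primary satellite cells of the hindlimb of C57BL/6 mice, genotype WT, that the labels call ageing without giving an age. The 3 BSA and 3 rhMG53 libraries come from cells treated for 72 h (day 3) in the same growth medium with serum and bFGF. The design text calls them biological replicates, but the labels name no animal or culture for any library, so the spread behind any p-value here may be partly technical. The libraries held 17374151 to 22738745 gene counts. The cultures held abundant transcripts of differentiating muscle. Over all 6 libraries the embryonic myosin gene Myh3 stood at 21460 CPM (counts relative to the scaled library size). The differentiation factor gene Myog was at 910.1 CPM and the satellite cell gene Pax7 at 9.24 CPM. Levels in bulk RNA do not give the share of cells in each state.

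Lysosomes digest proteins, lipids and glycans with hydrolases that work in acid. The V-ATPase makes that acid: its cytosolic V1 sector splits ATP and drives the membrane-embedded V0 sector, which carries protons into the lumen. The transcription factors TFEB, TFE3 and MITF (the MiT family) can switch on lysosomal genes through a short palindromic element in their promoters, and muscle depends on the system, since loss of acid alpha-glucosidase or of LAMP2 causes disease with glycogen or vacuoles in muscle.

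The element was looked for as TCACGTGA, which reads the same on both strands, in the 300 bases from 250 before to 50 after each annotated start (RefSeq, GRCm38.p6). Of the 44 genes 37 had such a promoter, and Atp6v0d2, Atp6v0a2, Atp6v1b2, Atp6v1c1, Atp6v1g1, Atp6v1h and Ctsb had none in the table. TCACGTGA was present in 7 of the 37 (18.9%), against 1.12% of the 27025 genes with a promoter and 2.15% of those expressed enough here to be fitted. Of 105 other lysosome pathway genes with a promoter, 11 held it (10.5%). The shorter core CACGTG, which every TCACGTGA contains, was in 13 of 37 (35.1%), against 8.09% of all genes and 11.8% of fitted ones. Among those with the short core alone was Lamp1, the gene of the main lysosomal membrane glycoprotein. The stretches that hold TCACGTGA are shown because they set the pump, the proteases, a glycosidase and a calcium channel side by side. They are written 5′ to 3′ on the strand of the gene, with the element in capitals:
Atp6v0d1: agagccaggccctactgcggTCACGTGA
Atp6v0e: gcggggctttagcgcgccgaTCACGTGA
Atp6v1a: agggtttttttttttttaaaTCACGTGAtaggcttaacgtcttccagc
Ctsa: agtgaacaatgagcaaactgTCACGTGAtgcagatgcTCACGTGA
Ctsd: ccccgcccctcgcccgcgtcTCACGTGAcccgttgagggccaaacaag
Mcoln1: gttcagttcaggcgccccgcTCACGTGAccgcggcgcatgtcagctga
Gla: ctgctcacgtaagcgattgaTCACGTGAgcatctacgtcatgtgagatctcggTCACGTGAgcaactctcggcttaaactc

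These lie at chr8:105566061-105566088 on the minus strand for Atp6v0d1, chr17:26676378-26676405 on the plus strand for Atp6v0e and chr16:44139364-44139411 on the minus strand for Atp6v1a. The Ctsa stretch is at chr2:164833740-164833784 (plus), beside the more 3′ of its annotated starts. The Atp6v1a stretch, too, is placed by an inner start, as the annotated span of that gene reaches to 44139702. Ctsd lies at chr7:142387899-142387946 (minus), Mcoln1 at chr8:3500453-3500500 (plus) and Gla at chrX:134601173-134601253 (minus). The first element began 4 bases before the start in Atp6v0d1, 13 in Ctsa, 46 in Mcoln1, 99 in Ctsd, 132 in Atp6v1a and 228 in Gla, and at base 3 of the transcript in Atp6v0e. Ctsa and Gla each held 2 copies. The 7 genes with the element had log2 fold changes (rhMG53 over BSA) from 0.01 to 0.23, with a median of 0.04, and the 29 fitted genes whose promoter lacked it ranged from -0.07 to 0.33, with a median of 0.02. A match in these letters is not evidence that a factor binds there.

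Per transcript length, most of the 44 genes were abundant, and their levels spanned a wide range. Ctsd, the gene of the aspartic protease cathepsin D, was the highest at 575.1 CPM per kilobase of exon, above 99.5% of fitted genes. It was followed by Lamp1 at 309.2, by Psap, whose product is cut into the saposins that help degrade sphingolipids, at 295.3, and by the tetraspanin gene Cd63 at 284.5 CPM per kilobase. At the other end stood Mitf at 1.59, the V0 gene Atp6v0d2 at 0.183 and the cathepsin S gene Ctss at 0.0723 CPM per kilobase. All members together took 7197 ± 38.7 CPM in BSA libraries and 7331 ± 95.8 CPM in rhMG53 libraries (SD, n = 3 each), or 0.726% of counts.

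**Figure D1:**
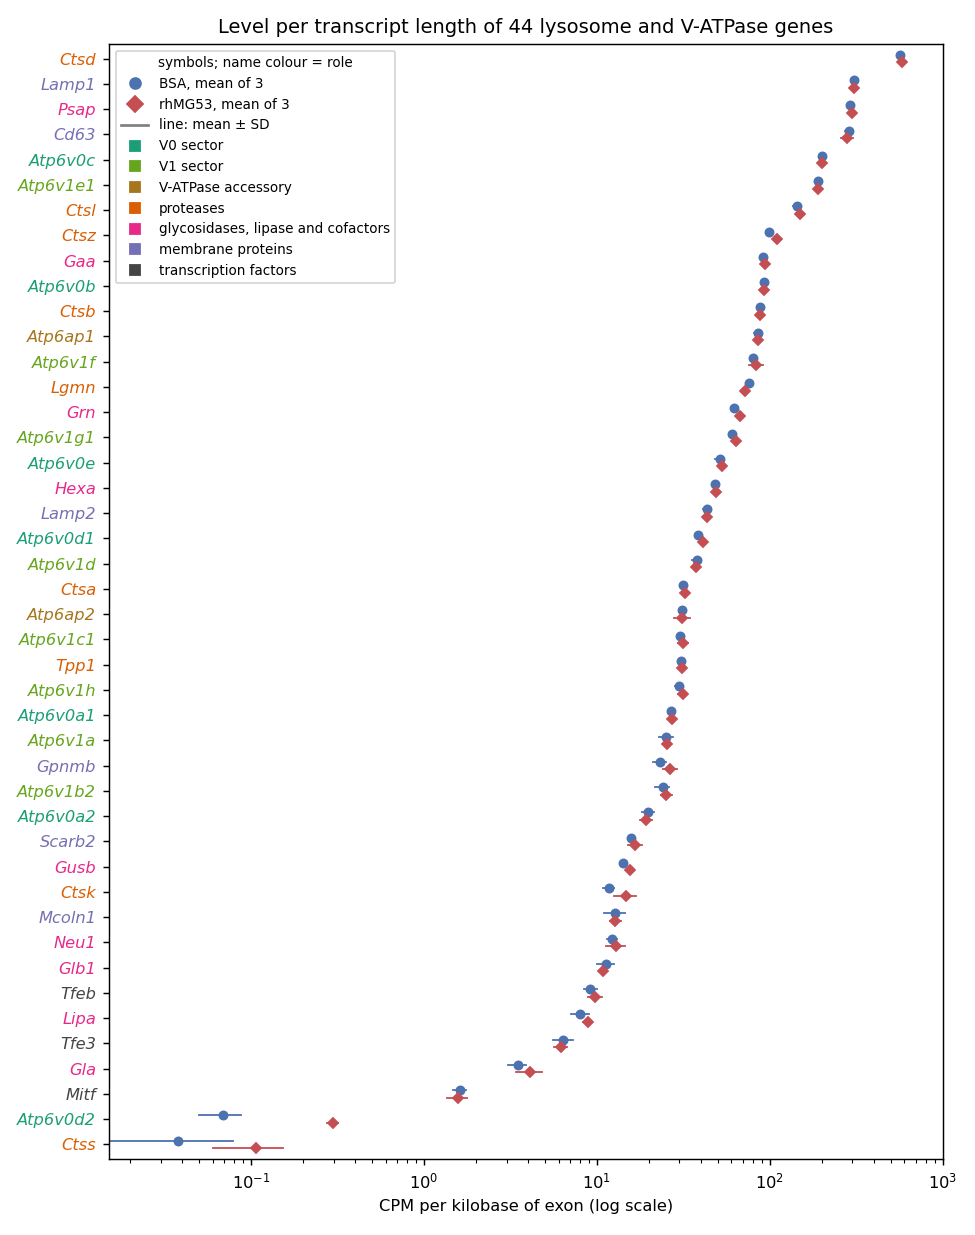
Level of each of the 44 genes as CPM per kilobase of exon on a log axis, as the mean (symbol) and SD (line) of 3 BSA and 3 rhMG53 libraries, with names coloured by role. Ctsd is highest at 575.1 and Ctss lowest at 0.0723, and Atp6v0d2 is the gene whose 2 symbols stand farthest apart. The BSA line of Ctss runs off the axis because its SD exceeds its mean.

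In the fit over all 13769 genes with enough counts, 43 of the 44 were included and Ctss was not. No member was called at an adjusted p of 0.05 in edgeR's quasi-likelihood test, against 0.0218% of all fitted genes. DESeq2 and limma voom also called none of the 43, against 0.0363% and 0.0218% of fitted genes. At an unadjusted p under 0.05, 4 of 43 members passed in edgeR (Atp6v0d2, Ctsk, Ctsz and Gpnmb, all higher with rhMG53), against 5.20% of fitted genes. Every rhMG53 library stood above every BSA library in 8 members, against 5.94% of fitted genes, and below in 1, against 4.83%. Because the contrast was known when the members were chosen, nothing is read from these counts. The fitted log2 fold change was above 0 in 30 and below 0 in 13, with a median of 0.04 beside 0.00 for all fitted genes, of which 50.5% were above 0. That split was 28 to 15 with RLE factors, 26 to 17 with upper quartile factors and 36 to 7 with library size alone, settings in which 48.6%, 47.6% and 55.9% of all fitted genes were above 0. Of the 43, 35 (81.4%) had a log2 fold change within 0.1 of 0, as did 60.8% of all fitted genes.

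**Figure D2:**
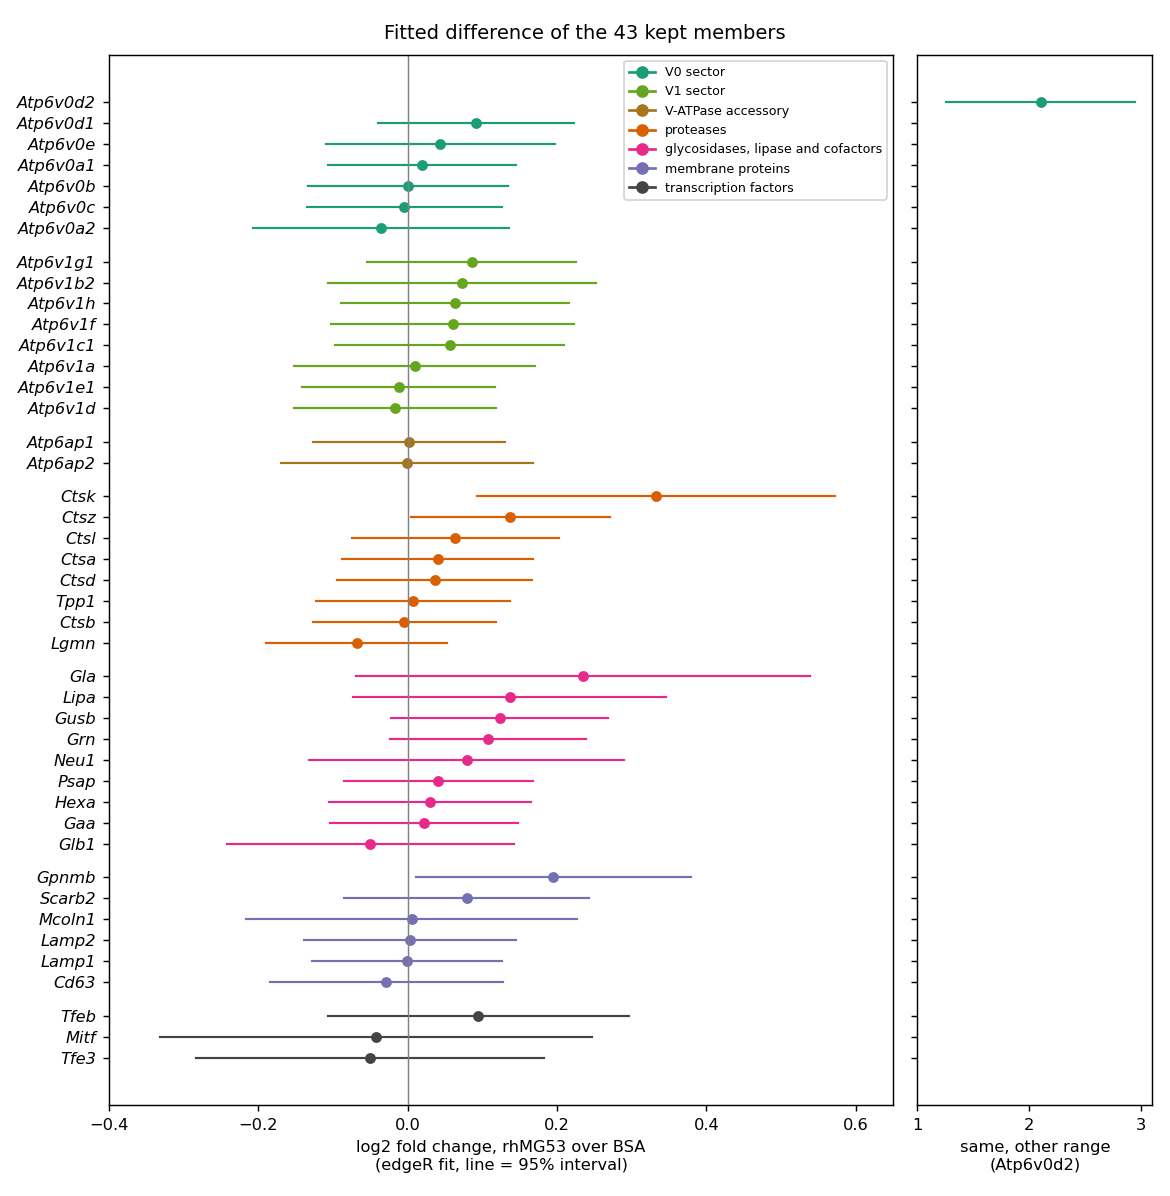
Fitted log2 fold change of the 43 members, rhMG53 over BSA, with its 95% interval as a line, grouped by role. Atp6v0d2, at 2.10, has an axis of its own, and 35 of the 43 lie within 0.1 of 0.

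The V0 sector held the member with the largest difference, in a transcript near the limit of detection. Atp6v0d2 (gene ID 242341, chromosome 4, 19876838 to 19922566 in GRCm38) encodes the d2 form of the subunit that links the V0 ring to the central stalk, and is known for its high expression in osteoclasts and its part in their fusion. It had 3, 4 and 3 counts in BSA replicates 1 to 3 and 16, 14 and 12 counts in rhMG53 replicates 1 to 3. All 3 rhMG53 libraries were above all 3 BSA libraries. The levels were 0.175 ± 0.0474 CPM and 0.755 ± 0.0565 CPM (SD, n = 3 each), and these SDs are no larger than counting error allows. The summed counts, 10 of 58842006 with BSA and 42 of 55174527 with rhMG53, gave a ratio of 4.48 with an exact (Clopper-Pearson) 95% interval of 2.21 to 10.01 that covers counting error only. The fitted log2 fold change was 2.10 (SE 0.382), and leaving out 1 library at a time gave 1.92 to 2.31. It was the highest of all 13769 fitted genes, which is partly a matter of selection: the gene entered the fit through its rhMG53 libraries alone, being under 10 counts in every BSA library. In all, 8 fitted genes shared that pattern, with log2 fold changes of 0.69 to 2.10, and 18 had the opposite one, with -1.68 to -0.58.

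Its paralog Atp6v0d1, the form found in most tissues, carried nearly all of the d subunit transcript. Atp6v0d1 stood at 63.6, 62.3 and 62.4 CPM in BSA libraries and at 65.1, 69.9 and 65.6 CPM in rhMG53 libraries. The groups did not overlap, by a small margin, and the log2 fold change was 0.09 (SE 0.0594). On the per-length scale Atp6v0d2 made up 0.178 ± 0.05001% of the d family with BSA and 0.720 ± 0.0613% with rhMG53, so that Atp6v0d1 remained above 99.2% of it in each of the 6 libraries.

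The large a subunit, which forms the path for protons and helps decide where the pump sits in the cell, came from 3 genes. Atp6v0a1 was at 106.9, 109.3 and 106.8 CPM in BSA libraries and 110.4, 104.2 and 112.7 CPM in rhMG53 libraries, and the groups overlapped (log2 fold change 0.02, SE 0.0573). Atp6v0a2 was at 109.4, 111.1 and 96.0 CPM in BSA libraries and 103.6, 94.6 and 110.7 CPM in rhMG53 libraries, again with overlap (-0.04, SE 0.0777). Per length, Atp6v0a1 gave 43.4% of the a family, Atp6v0a2 31.4%, and Tcirg1, the a3 form of secretory lysosomes in osteoclasts, 25.2%, while the kidney form Atp6v0a4 had 9 counts in all. The share of Tcirg1 ranged from 21.3% in rhMG53 replicate 3 to 30.4% in BSA replicate 3.

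Among the small membrane subunits, Atp6v0c, which encodes the proteolipid of the rotating ring, was the highest at 231.5, 240.9 and 238.2 CPM in BSA libraries and 223.4, 246.7 and 238.4 CPM in rhMG53 libraries. The groups overlapped. The row named as its pseudogene, Atp6v0c-ps2, stood at 120.8 CPM, and reads of near-identical sequence can be split between them, so the level of Atp6v0c is uncertain. The pseudogene row, too, was level between treatments (120.6 ± 1.41 and 120.9 ± 4.94 CPM). Atp6v0b, the second ring proteolipid, had 92.3 ± 2.88 CPM in BSA libraries and 92.3 ± 4.28 CPM in rhMG53 libraries. Atp6v0e, a small subunit, had 42.3 ± 2.69 and 43.6 ± 1.56 CPM, and made 86.4% of its family per length, the rest coming from Atp6v0e2.

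**Figure D3:**
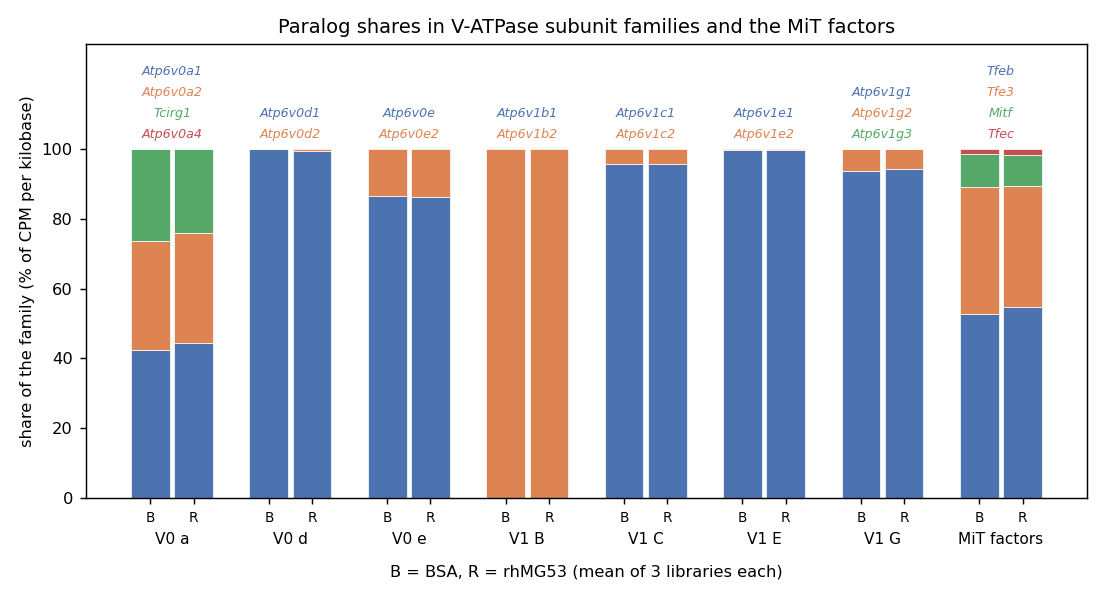
Share of each paralog in 7 V-ATPase subunit families and in the MiT transcription factors, as a percentage of the family's CPM per kilobase of exon, for the mean of 3 BSA (B) and 3 rhMG53 (R) libraries. One gene dominates the d, e, B, C, E and G families, while the a family is divided between Atp6v0a1 (43.4% over all libraries), Atp6v0a2 (31.4%) and Tcirg1 (25.2%).

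The V1 genes, which encode the ATP-splitting head and its stalks, had log2 fold changes of -0.02 to 0.09. The catalytic A subunit gene Atp6v1a was at 106.9 ± 9.77 CPM in BSA libraries and 107.7 ± 4.39 CPM in rhMG53 libraries. Atp6v1b2, of the regulatory B subunit, was the lowest of the sector per length, at 68.6, 73.7 and 60.9 CPM in BSA libraries and 77.1, 67.8 and 68.7 CPM in rhMG53 libraries, and its groups overlapped (log2 fold change 0.07, SE 0.0816). The stalk gene Atp6v1e1 was the highest of the sector per length, at 243.6, 256.5 and 252.5 CPM in BSA libraries and 243.9, 261.4 and 240.9 CPM in rhMG53 libraries. Its groups overlapped. The largest value in the sector belonged to Atp6v1g1, another stalk subunit, at 69.9, 69.7 and 66.3 CPM in BSA libraries and 70.5, 77.5 and 70.5 CPM in rhMG53 libraries (log2 fold change 0.09, SE 0.0634). Its groups did not overlap, although only rhMG53 replicate 2 stood clear of the BSA libraries. For the rotor gene Atp6v1d the log2 fold change was -0.02 (SE 0.0614). It was 0.06 for each of Atp6v1c1, Atp6v1f and Atp6v1h, with SEs of 0.0693 to 0.0738. The ubiquitous forms made 99.9% of the B family, 95.6% of C, 99.8% of E and 93.9% of G per length, with the neuronal form Atp6v1g2 at 6.05% of G.

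Summed over paralogs, the subunits differed several-fold in transcript per length. The ring subunit c was at 199.9 CPM per kilobase and E at 190.8, while H was at 30.6, A at 25.3 and B at 24.6. The value of c is that of Atp6v0c, which is uncertain because of its pseudogene row. The accessory genes Atp6ap1 and Atp6ap2, whose products help the pump to assemble, showed no difference in mean beyond their spread. Atp6ap1 was at 184.3, 189.3 and 201.9 CPM in BSA libraries and 190.5, 196.8 and 188.6 CPM in rhMG53 libraries. Atp6ap2 was at 73.4, 72.0 and 72.5 CPM in BSA libraries and 68.4, 81.6 and 67.8 CPM in rhMG53 libraries. In both genes the groups overlapped, and rhMG53 replicate 2 stood apart as the highest library for Atp6ap2. The 17 V-ATPase members together took 1726 ± 24.0 CPM in BSA libraries and 1742 ± 36.6 CPM in rhMG53 libraries.

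The protease genes spanned the whole range of levels, from Ctsd at the top to Ctss at the bottom, and Ctsk had the largest fitted difference among them. Ctsd stood at 1194, 1197 and 1233 CPM in BSA libraries and 1225, 1263 and 1227 CPM in rhMG53 libraries, with overlap (log2 fold change 0.04, SE 0.0594). The cysteine protease gene Ctsb was at 419.0 ± 7.71 and 417.7 ± 7.84 CPM, and Ctsl at 283.1 ± 12.6 and 295.9 ± 14.98 CPM. Ctsa, which encodes the carboxypeptidase that protects neuraminidase and beta-galactosidase, was at 115.2 ± 4.63 and 118.4 ± 3.08 CPM. The tripeptidyl peptidase gene Tpp1 had 109.5 ± 1.83 and 110.0 ± 5.13 CPM.

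Ctsk encodes cathepsin K, the collagen-degrading protease known from osteoclasts. It was at 19.1, 16.9 and 17.05 CPM in BSA libraries and at 25.6, 22.1 and 19.2 CPM in rhMG53 libraries. The lowest rhMG53 library and the highest BSA library were almost equal. The log2 fold change was 0.33 (SE 0.108), and it was 0.22 without rhMG53 replicate 1 and 0.43 without rhMG53 replicate 3. Ctsz, of the carboxypeptidase cathepsin Z, was at 135.7, 145.8 and 149.3 CPM in BSA libraries and 154.6, 163.7 and 155.3 CPM in rhMG53 libraries. All rhMG53 libraries were above the BSA libraries, with a log2 fold change of 0.14 (SE 0.0603). Lgmn, of the asparaginyl endopeptidase legumain that matures cathepsins, was the single member with every rhMG53 library below every BSA library. It stood at 148.7, 149.4 and 152.4 CPM in BSA libraries and 140.7, 148.2 and 140.8 CPM in rhMG53 libraries (-0.07, SE 0.0551).

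Ctss, a cathepsin of antigen-presenting cells, had 1, 0 and 2 counts with BSA and 2, 4 and 2 counts with rhMG53. It was too low to fit, and the ratio of its summed counts, 8 against 3 after scaling by library totals, was 2.84 with an exact 95% counting interval of 0.683 to 16.6.

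**Figure D4:**
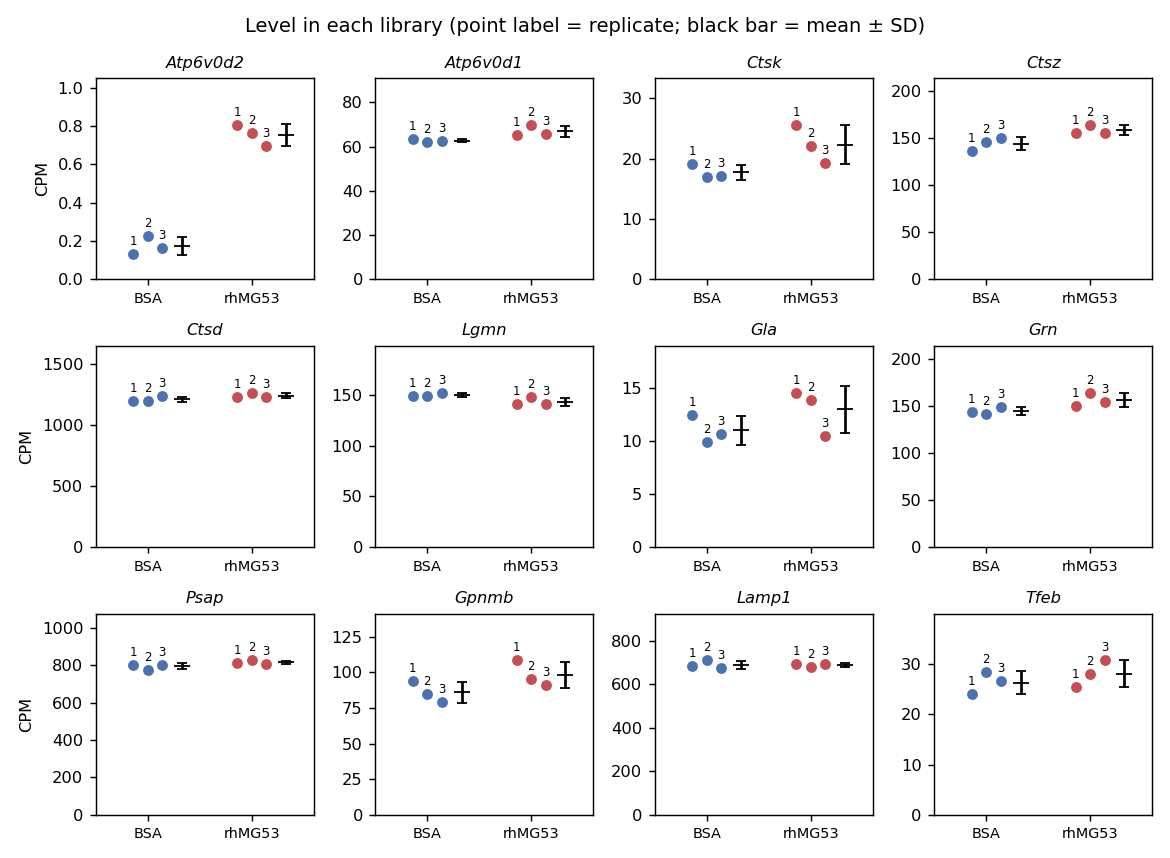
CPM of 12 members in each library, with points numbered by replicate, a black bar for mean ± SD over 3 libraries, and axes that start at 0. The 2 groups stand apart in Atp6v0d2, at under 1 CPM, and lie close together or overlap in the other 11.

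Of the genes for glycosidases, the acid lipase and their helper proteins, 8 of 9 had a log2 fold change above 0, none of them called, with a median of 0.08, where 50.5% of all fitted genes were above 0. Psap was at 804.6, 775.7 and 802.7 CPM in BSA libraries and at 815.1, 827.0 and 810.0 CPM in rhMG53 libraries. The groups did not overlap, but the log2 fold change was only 0.04 (SE 0.0574). Gla, the alpha-galactosidase gene that is mutated in Fabry disease, was the lowest per length (3.79 CPM per kilobase) and had the largest value of the group. It stood at 12.5, 9.89 and 10.7 CPM in BSA libraries and 14.6, 13.9 and 10.5 CPM in rhMG53 libraries. The groups overlapped through rhMG53 replicate 3, and the log2 fold change was 0.23 (SE 0.138), or 0.14 without rhMG53 replicate 1 and 0.36 without rhMG53 replicate 3.

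Grn, which encodes progranulin, had every rhMG53 library (150.1, 164.6 and 154.7 CPM) above every BSA library (144.3, 141.6 and 149.6 CPM), with a log2 fold change of 0.11 (SE 0.0594). The same order held for the beta-glucuronidase gene Gusb, at 36.8, 38.5 and 39.6 CPM in BSA libraries and 43.7, 40.7 and 40.6 CPM in rhMG53 libraries (0.12, SE 0.0657). In both genes the difference was small beside the general level. Gaa, the glycogen-degrading enzyme gene of Pompe disease, was at 334.3 ± 5.38 and 339.4 ± 12.7 CPM. Hexa, of the ganglioside-degrading hexosaminidase A, was at 95.9 ± 1.63 and 97.9 ± 5.59 CPM. The beta-galactosidase gene Glb1, whose enzyme activity is widely used to stain senescent cells, was at 27.0 ± 2.94 and 26.1 ± 0.823 CPM (-0.05, SE 0.0872). Neu1, the sialidase gene, and Lipa, the acid lipase gene, had log2 fold changes of 0.08 (SE 0.0955) and 0.14 (SE 0.0950), with groups that overlapped.

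Among the membrane proteins of the lysosome Gpnmb had the largest fitted difference, and the groups overlapped in all of them. Lamp1 was at 683.7, 709.3 and 674.7 CPM in BSA libraries and 694.6, 677.6 and 694.6 CPM in rhMG53 libraries, with overlap in both directions. Lamp2, the gene lost in Danon disease, was at 217.8 ± 11.5 and 218.3 ± 11.6 CPM, and Cd63 at 374.3 ± 17.7 and 367.0 ± 29.3 CPM. Mcoln1, which encodes a calcium release channel of the lysosome and was the lowest of the group per length, stood at 24.97, 23.7 and 30.4 CPM in BSA libraries and 25.5, 28.7 and 25.1 CPM in rhMG53 libraries. Its values overlapped widely. Scarb2, of the receptor that carries glucocerebrosidase to the lysosome, had a log2 fold change of 0.08 (SE 0.0746).

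Gpnmb, a transmembrane glycoprotein gene controlled by MiT factors in several cell types, stood at 93.8, 84.8 and 78.8 CPM in BSA libraries and 108.3, 95.5 and 90.9 CPM in rhMG53 libraries. Of the rhMG53 libraries 2 were above every BSA library, and rhMG53 replicate 3 fell between BSA replicates 1 and 2. The log2 fold change was 0.19 (SE 0.0836), with 0.12 when rhMG53 replicate 1 was left out and 0.27 when BSA replicate 1 was left out.

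The genes of the MiT transcription factors were at low to middle levels and did not differ beyond their spread. Tfeb was at 24.0, 28.4 and 26.6 CPM in BSA libraries and 25.4, 28.01 and 30.7 CPM in rhMG53 libraries (log2 fold change 0.09, SE 0.0912). Tfe3 was at 20.7, 20.7 and 25.8 CPM in BSA libraries and 19.9, 23.8 and 21.2 CPM in rhMG53 libraries (-0.05, SE 0.106). Mitf was at 8.75, 8.81 and 7.53 CPM in BSA libraries and 8.84, 6.87 and 8.69 CPM in rhMG53 libraries (-0.04, SE 0.131). In all of them the groups overlapped. Per length Tfeb made 53.7% of the family, Tfe3 35.6%, Mitf 9.07% and Tfec 1.65%. These factors are controlled largely by phosphorylation and entry into the nucleus, which transcript counts do not measure.

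Libraries within each group differed by transcript length, among all genes and among the members. In rhMG53 replicate 2, all 8 members with less than 1500 bases of exon and at least 5 CPM were above the mean of the other 2 rhMG53 libraries, with a median log2 difference of 0.11, while 4 of the 14 over 3000 bases were, with a median of -0.08. Among all fitted genes of at least 5 CPM, 1159 of 1311 under 1500 bases were above that mean. So were 1613 of 5512 over 3000 bases. Across 42 members Spearman's rho between the deviation from that mean and length was -0.66. Across 9928 genes of at least 5 CPM it was -0.63. In rhMG53 replicate 1 the values were 0.49 and 0.53, and in rhMG53 replicate 3 they were 0.41 and 0.30. The BSA libraries, read in the same way against each other, gave 0.25 and 0.45 in replicate 1, 0.05 and 0.12 in replicate 2, and -0.35 and -0.45 in replicate 3. These are correlations over genes that share a library, given as a description. Short members such as Atp6v1f, Atp6v0e, Atp6v1g1 and Cd63 were each highest in rhMG53 replicate 2. That library held the highest value of the 6 for 16 of the 43 fitted members and rhMG53 replicate 1 for 13. The number was 4 for rhMG53 replicate 3, and 1, 3 and 6 for BSA replicates 1 to 3. The same numbers over all fitted genes were not taken, so nothing is read from them. Whether length played a part in the differences between treatments was not tested.

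**Figure D5:**
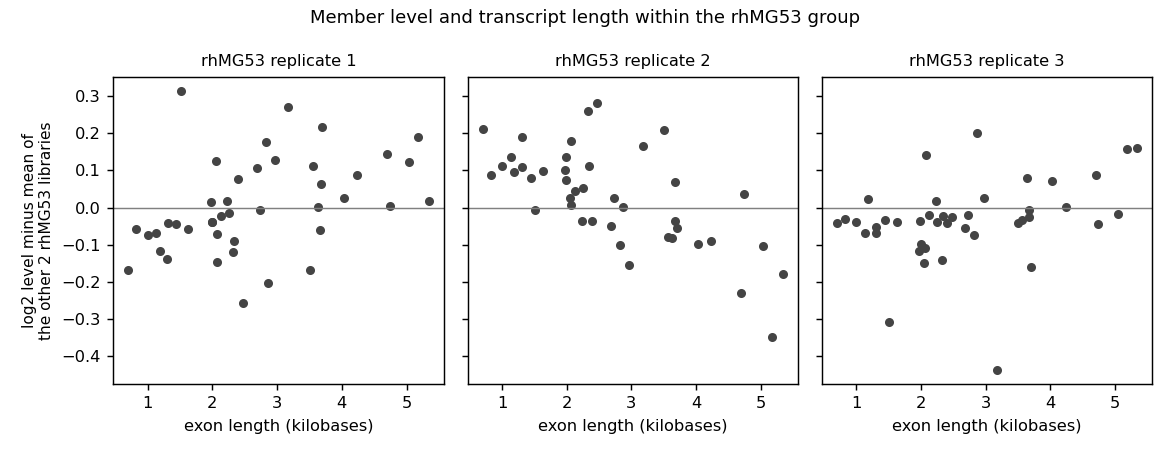
For each rhMG53 library, the log2 level of the 42 members with at least 5 CPM minus their mean in the other 2 rhMG53 libraries, against exon length in kilobases. Replicate 2 slopes down with length (rho -0.66) and replicate 1 slopes up (rho 0.49).

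Several of the members that differed most are known from macrophages, osteoclasts or pigment cells, so markers of those cells were read in the same libraries. Of 17 markers of macrophages and other leukocytes, 12 were under 1 CPM and C1qb and C1qc had no count in any library. The list summed to 14.4 to 16.2 CPM in BSA libraries and 14.9 to 18.7 CPM in rhMG53 libraries. Without Itgam, Laptm5, Cd53 and Mrc1, which carried most of that sum, it was at 2.96, 2.43 and 2.53 CPM in BSA libraries and 2.17, 6.48 and 2.55 CPM in rhMG53 libraries. Replicate 2 of rhMG53 stood apart there, with 73 counts of the lysozyme gene Lyz2 against 10 to 17 in the other libraries. The genes left out of that second sum are themselves markers of the list. Ptprc was named after its values were seen, as the single marker of the 17 without overlap. It had 2, 2 and 2 counts with BSA and 1, 0 and 0 with rhMG53, too few to be fitted. Of 8 osteoclast markers 6 were under 1 CPM and Dcstamp had no count, and the list summed to 23.4 to 26.2 CPM in BSA libraries and 24.1 to 27.7 CPM in rhMG53 libraries, mostly from Nfatc1 (20.7 CPM), which muscle also expresses. Acp5, of the acid phosphatase TRAP, and Oscar, of an osteoclast receptor, were named after their values were seen. Both were lower in CPM in every rhMG53 library than in every BSA library. Neither had enough counts to be fitted, and the share of such unfitted genes without overlap was not taken. For Acp5 the margin was narrow, between 0.165 CPM in BSA replicate 3 and 0.151 CPM in rhMG53 replicate 1. The groups overlapped in Calcr, Ocstamp, Tnfrsf11a, Itgb3 and Nfatc1. For Ocstamp the BSA mean was 0.281 CPM and the rhMG53 mean 0.275 CPM, and Itgb3 had a log2 fold change of 0.195 (SE 0.175). Acp5 had 13, 5 and 3 counts with BSA and 3, 2 and 2 with rhMG53, and Oscar had 10, 5 and 9 counts with BSA and 3, 4 and 3 with rhMG53. The pigment cell genes Tyr and Dct had no count in any library. Pmel, another pigment cell gene, had 7, 4 and 6 counts with BSA and 8, 7 and 8 with rhMG53. In CPM every rhMG53 library was above every BSA library. Pmel, too, was named after its values were seen and had too few counts to be fitted. Fibroblast and fibro-adipogenic markers summed to 468.4 to 542.9 CPM in BSA libraries and 491.2 to 546.2 CPM in rhMG53 libraries, and 6 of the 8 were fitted. Col3a1 made up most of that sum (437.7 ± 36.2 and 430.4 ± 21.8 CPM). Dcn, of the matrix proteoglycan decorin, was named after its values were seen, as the single marker of the 8 without overlap. Its rhMG53 libraries (18.18, 20.1 and 18.9 CPM) were all above its BSA libraries (18.17, 15.3 and 16.3 CPM), by a very small margin. The log2 fold change of Dcn was 0.19 (SE 0.0899), and 5.94% of all fitted genes had that order. Among the other fitted markers, Pdgfra, Ly6a and Cd34 had log2 fold changes of 0.10 to 0.17. Those of Dpt and Col3a1 were -0.05 and -0.02. In bulk RNA, a change in the number of cells of a type and a change in RNA per cell cannot be told apart, and the part of other cell types in the values of Atp6v0d2, Ctsk and Gpnmb was not tested.

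The rest of the lysosomal pathway, 138 genes in 5 lists, was read in the same fit, where 130 had enough counts. None was called by edgeR, DESeq2 or limma voom, and 5 of 130 (3.85%) had an unadjusted p under 0.05 in edgeR, against 5.20% of all fitted genes. Of the 130, 70 had a log2 fold change above 0 and 60 below, with a median of 0.01, beside 50.5% of all fitted genes above 0. The 36 other hydrolases and cofactors had 25 above and 11 below 0, with a median of 0.07. Their largest values among genes of at least 5 CPM were those of the sulfamidase gene Sgsh (8.63 ± 1.62 CPM in BSA libraries and 10.5 ± 1.41 with rhMG53, log2 fold change 0.28, SE 0.151) and of the glucosaminidase gene Naglu (7.91 ± 1.27 and 9.62 ± 0.314 CPM, 0.28, SE 0.130). The arylsulfatase A gene Arsa, named after its values were seen, was at the same value (15.2 ± 0.884 and 18.4 ± 1.61 CPM, 0.28, SE 0.0928), and was the single gene of that list with an unadjusted p under 0.05. Medians of the remaining lists lay at 0.00 for membrane proteins and transporters (24 fitted), 0.00 for sorting (28), 0.00 for other V-ATPase genes (15) and -0.01 for nutrient sensing and control of TFEB (27).

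Among membrane proteins the largest values were those of Tmem192 (0.31, SE 0.105) and of the nucleoside transporter gene Slc29a3 (0.14, SE 0.170). Among sorting genes they were those of Nagpa (0.39, SE 0.131), whose enzyme uncovers the mannose 6-phosphate tag of hydrolases, and of the small GTPase gene Arl8b (0.14, SE 0.0669), which moves lysosomes along microtubules. In the nutrient sensing list, Fnip2, whose product partners folliculin at the lysosome, was at 6.99 ± 0.954 CPM in BSA libraries and 8.93 ± 0.977 CPM in rhMG53 libraries (0.35, SE 0.137). Nprl2, a subunit of the GATOR1 complex that restrains mTORC1, was at 16.2 ± 1.14 and 13.8 ± 0.690 CPM (-0.23, SE 0.0910). Of the other V-ATPase genes, Ncoa7 (-0.21, SE 0.138), whose product binds the pump, and Tcirg1 (-0.20, SE 0.113) had the largest values, both lower with rhMG53 and neither called.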

How the data were processed

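The deposited table holds raw integer counts for each NCBI gene ID in 6 libraries. The submitters' processing notes name mm10, STAR, featureCounts and edgeR without versions. The annotation, strand setting and handling of multiply mapped reads were not given in the sources used here, so reads of genes that overlap (Ctsa, Ctsb, Ctsz, Hexa, Glb1 and Atp6v1b2 overlap other protein-coding genes) cannot be separated with certainty. Per the labels' protocols, libraries were directional and poly(A)-selected.

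Gene IDs were matched to RefSeq symbols (GRCm38.p6), naming 25293 of 27179 rows. Libraries were grouped by treatment label, and no sample or column was left out. Genes were kept with filterByExpr (minimum count 10, minimum total 15), scaled with TMM and fitted over all 13769 kept genes with edgeR 4.0.16 (quasi-likelihood F test, treatment as the only term, R 4.3.3), 2-sided, adjusting p-values over those genes by the Benjamini-Hochberg method. The SE is the log2 fold change divided by the square root of F. CPM uses TMM-scaled library sizes. Exon lengths are the union of exons of GENCODE M21 basic transcripts with a RefSeq match, found for all 44 members and 93.42% of kept genes. The fit was tested on simulated counts of this comparison (13769 genes, 3 runs, 150 genes per fold), where its recovery was 20% at a 1.25-fold change, 68% at 1.5-fold and 88% at 2-fold. Many genes were changed in each simulated run, which eases the adjusted threshold, and the simulated libraries had no differences linked to transcript length. Recovery in the real libraries may therefore be lower, and the absence of called members does not exclude changes of these sizes.

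The members and lists were chosen with earlier results of these data known. Values in every library are given for paralogs and specialised members, the transcription factors, members not kept, and in each role group the highest and lowest per length and the largest log2 fold change. Of other pathway genes the 2 largest log2 fold changes per list at 5 CPM or more are named. Other members in full were chosen after their values were seen. Alternatives were other scalings and filters, DESeq2 1.42.0, limma voom (limma 3.58.1), robust moderation, the replicate number as a term and leaving out each library. Single markers were named after their values were seen, and the summed level of the melanocyte and Schwann cell markers is not reported here.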

Additional observations from a re-analysis of the deposited data

How the results depend on the processing

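No member and no other pathway gene was called under any of the 15 alternatives. The count over all fitted genes was 3, and became 6 without a filter on low counts, 5 with DESeq2, 0 with the replicate block and 0 to 4 when each library was left out, with 0 reached without BSA replicate 2. The replicate numbers share no stated animal, culture or day. Deviations of same-numbered libraries correlated at 0.19, -0.13 and -0.15, so the numbers were not taken to pair the samples. With the block, Atp6v0d2 had a log2 fold change of 2.10 and Ctsk one of 0.33. Of 43 fitted members, 20 kept 1 sign under every alternative they were fitted in, 19 above 0 and 1 (Lgmn) below, and 33 kept it under the 3 other scalings. All alternatives refit the same libraries, and the share of all fitted genes that kept 1 sign was not taken, so nothing is read from these counts. Of 644 member values under alternatives 643 moved by less than the spread between replicates. The exception was Atp6v0d2, at 2.31 without BSA replicate 2. With 1 of 3 libraries left out, a value can hardly move by more than that spread, so this count does not measure robustness. The log2 ratio of the summed level of all members was 0.03, and 0.04 with library size alone, the 1 of 72 summed values that moved by more than the spread. Depth limits Atp6v0d2 and Ctss, which rest on 10 and 3 counts with BSA and 42 and 8 with rhMG53.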
